A study of Mus musculus with 45 samples.

Results

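Embryoid bodies (EBs) made from mouse embryonic stem cells that lack Smad2 were compared with EBs that lack both Smad2 and Smad3, after 3 days of differentiation. The comparison asks what Smad3 still does when Smad2 is missing. Its members are the 4 arrays labelled d3EB_Smad23DKO (Smad2/3 DKO) and the 4 labelled d3EB_Smad2KO (Smad2 KO), 8 of the 45 Illumina MouseWG-6 v2.0 arrays of the series. All cells are of the strain 129/Sv//Ev. The Smad2 KO cells are homozygous for the allele Smad2 tm1Rob, and the DKO cells carry that allele on both chromosomes as well, with the region around exon 1 of Smad3 removed by paired CRISPR nickases. Each array holds a different clone: KT17, KT15, KT11 and KT12 for Smad2 KO replicates 1 to 4, and KT15.2G9, KT15.2D5, KT15.1F6 and KT15.1F11 for the DKO. The 4 DKO clones all descend from the Smad2 KO clone KT15, so they are not independent of each other by parent. A trait already fixed in KT15 can be read only on its 1 array (Smad2 KO replicate 2), which has no spread of its own. EBs were formed in hanging drops and then held in suspension in serum without LIF, and 5000 EBs were pooled per array on both sides. The d3 WT and Smad3 KO arrays (4 each), given for orientation, came from 1250 EBs.

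Smad2 and Smad3 are closely related transcription factors that carry signals from the receptors of Nodal, Activin and TGF-beta to the nucleus, where they bind DNA together with Smad4 and partners such as Foxh1. In the early mouse embryo Nodal signaling keeps the epiblast pluripotent and then, together with Wnt and Fgf signals, starts the primitive streak, from which mesoderm and endoderm arise. EBs at this stage pass through a similar sequence, leaving the naive state, entering a primed state and then switching on streak genes. Bmp ligands act through a separate set of Smads and induce Id genes and, in the extra-embryonic ectoderm, trophoblast regulators.

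Values are the deposited normalized signals on a log2 scale, and a difference is the DKO mean minus the Smad2 KO mean, with its standard error (SE). A probe was tested if it was detected (detection p under 0.01) in at least 3 of the 45 arrays, which left 16896 probes for 9666 genes. On the 8 arrays 13214 to 14256 of 45281 probes were detected, with a median raw signal of 135 to 177.8, against 111.2 to 243.1 over the 45 arrays. Smad2 KO replicate 4 (clone KT12) stood apart from its group. All 10 markers of undifferentiated ESCs that fall in wild-type EBs were higher on it than on the other 3 Smad2 KO arrays, and 7 of them lay within the range of the ESC Smad2 KO arrays, while 6 of 8 measured markers of d3 EBs were lower than on the other 3. Fgf5, Fst and Fgf8, tested below, are among those d3 markers and were low on replicate 4. Their p-values without it are therefore not independent of the choice to leave it out. The summed linear signal of the d3 list was 5397 on replicate 4, 5119 to 6379 in the DKO and 18231 to 19345 on replicates 1 to 3. For the ESC list it was 46521, 7420 to 13433 and 5681 to 7457. Because of its marker pattern, results below are given without replicate 4 (3 against 4 arrays) unless said otherwise. For genes given with a value of their own, where a call was lost with all 8 arrays as labelled, or when 1 more of the 7 arrays was left out, the adjusted p of that setting follows the main one, with the array whose removal gave the highest. Of 10 fibroblast markers 9 were undetected on all 8 arrays, Thy1 being the exception, and the summed linear signal of the list was 495 to 549 in the DKO and 657 to 732 in Smad2 KO replicates 1 to 3. Of 10 measured blood and endothelial markers 4 were detected on at least 1 DKO array and 3 on at least 1 of those Smad2 KO arrays, with summed signals of 689 to 1113 and 575 to 1394. Those detected were Hbb-bh1, Pecam1, Cdh5 and Kdr in the DKO and the globin genes Hba-a1, Hbb-bh1 and Hba-x in Smad2 KO. Gata1, Tal1, Ptprc and Cd34 were undetected on all 8. The part of blood or endothelial cells in the results was not tested. With bulk RNA, fewer cells of a type and less RNA per cell cannot be told apart.

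Without replicate 4, limma called 701 genes at an adjusted p under 0.05 (Benjamini-Hochberg over all probes), 7.25% of the 9666 tested, with 280 higher in the DKO (2.90%) and 421 lower (4.36%). As labelled it called 442 (4.57%), 243 higher (2.51%) and 199 lower (2.06%). Genes whose arrays did not overlap between the groups made up 9.24% (higher) and 10.3% (lower) without replicate 4, and 6.21% and 4.43% as labelled. Leaving out Smad2 KO replicate 2 (KT15) in addition to replicate 4 lowered the count from 701 to 412, and leaving out DKO replicate 1 lowered the count as labelled from 442 to 190. The sets without replicate 4 and as labelled shared 207 higher and 174 lower genes, and no gene called in both changed direction. The median difference over all tested genes was 0.01 without replicate 4 and -0.01 as labelled. At an unadjusted p under 0.05 and a fold over 1.5, 1252 of the 9666 genes passed without replicate 4 and 1200 as labelled. Counts of list members at an unadjusted p under 0.05 below carry no limit on the fold, and the share of all genes at that level was not counted.

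Smad3 itself checks the labels. Its signal was 10.02, 9.94 and 9.70 on Smad2 KO replicates 1 to 3, 8.26 on replicate 4 and 5.77, 5.98, 5.97 and 5.59 on the DKO arrays, where its probe was undetected throughout. All 4 Smad2 KO arrays lay above all 4 DKO arrays, and WT arrays ranged from 9.43 to 9.79. Smad3 was at least 7.79-fold lower in the DKO without replicate 4 (adjusted p = 5.36e-06) and at least 5.88-fold lower as labelled (adjusted p = 0.000151). A lower bound is given wherever a probe was undetected on every array of the dim group: the mean of the bright group is set against the mean, per array, of the lowest detected signal or the signal of the probe, whichever is higher. The Smad2 probe gave 9.14, 9.41 and 9.44 on replicates 1 to 3, 8.73 on replicate 4 and 9.40, 9.34, 9.44 and 9.69 in the DKO, and WT arrays ranged from 8.81 to 9.09. This probe was detected in every group and checks nothing of the Smad2 allele. The stretch just upstream of exon 1 of Smad3, the side of the gene at which the DKO lines were targeted, reads as follows in RefSeq (250 bases, GRCm38.p6, chr9:63757995-63758244, minus strand).
Smad3: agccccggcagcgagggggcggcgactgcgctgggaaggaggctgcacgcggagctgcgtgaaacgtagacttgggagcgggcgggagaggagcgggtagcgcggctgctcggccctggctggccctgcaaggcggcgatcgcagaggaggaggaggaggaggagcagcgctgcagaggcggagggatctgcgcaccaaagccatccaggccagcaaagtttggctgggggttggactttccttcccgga

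Of 13 tested genes of the Nodal and Activin pathway and its targets, 4 were lower in the DKO and 9 did not pass, beside 4.36% of all genes called lower. Lefty1 and Lefty2, secreted inhibitors of Nodal that are induced by the pathway, were on in Smad2 KO EBs and undetected in every DKO array. Lefty1 was 11.37, 10.27 and 10.32 on Smad2 KO replicates 1 to 3, 10.81 on replicate 4 and 5.36, 5.79, 5.70 and 6.27 in the DKO. Lefty2 was 11.01, 10.80 and 11.22, then 9.41 on replicate 4, and 5.00, 5.66, 5.15 and 6.02 in the DKO. For both genes the groups were far apart on all 8 arrays, replicate 4 included. Lefty1 was at least 13.2-fold lower (adjusted p = 0.000559) and Lefty2 at least 16.9-fold lower (adjusted p = 0.000305). The 3 Smad2 KO arrays lay inside the WT range for both, 10.18 to 12.16 for Lefty1 and 10.13 to 11.86 for Lefty2. EB number differs between WT and both knockouts, and its part in any value set against WT was not tested.

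Fst, which encodes the Activin antagonist follistatin, was 12.68, 12.82 and 12.86 on Smad2 KO replicates 1 to 3 and 5.46, 7.37, 5.85 and 6.61 in the DKO, a difference of -6.46 ± 0.49 (adjusted p = 5.36e-06). Only 1 DKO array detected it, and replicate 4 was intermediate at 8.62. Tdgf1, the Nodal co-receptor Cripto, was 7.73, 7.87 and 7.76 on replicates 1 to 3, 8.42 on replicate 4 and 5.76, 6.30, 5.55 and 5.23 in the DKO, at least 1.82-fold lower (adjusted p = 0.00415). These 4 genes were called lower in both analyses. The median difference of that list was -0.59 without replicate 4, against 0.01 over all genes. Nodal itself read 12.74, 12.30 and 12.46 on replicates 1 to 3, 12.12 on replicate 4 and 10.61, 9.85, 10.99 and 10.85 in the DKO. The groups did not overlap, but the difference of -1.93 ± 0.68 did not pass the test (adjusted p = 0.122), and the ligand was detected on every DKO array. Nodal passed under 5 of the 18 alternatives run, among them the fit of the 2 groups alone and the looser unadjusted threshold. Of the Smad family, 5 members were tested and Smad3 alone was called. Among 13 genes known to respond to TGF-beta in other cells, Jun was higher (1.12 ± 0.23, adjusted p = 0.00841, 0.0544 without Smad2 KO replicate 3) and Tgif1, a corepressor of Smad complexes, lower (-0.66 ± 0.17, adjusted p = 0.0357, 0.157 without Smad2 KO replicate 3, 0.051 as labelled).

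**Figure D1:**
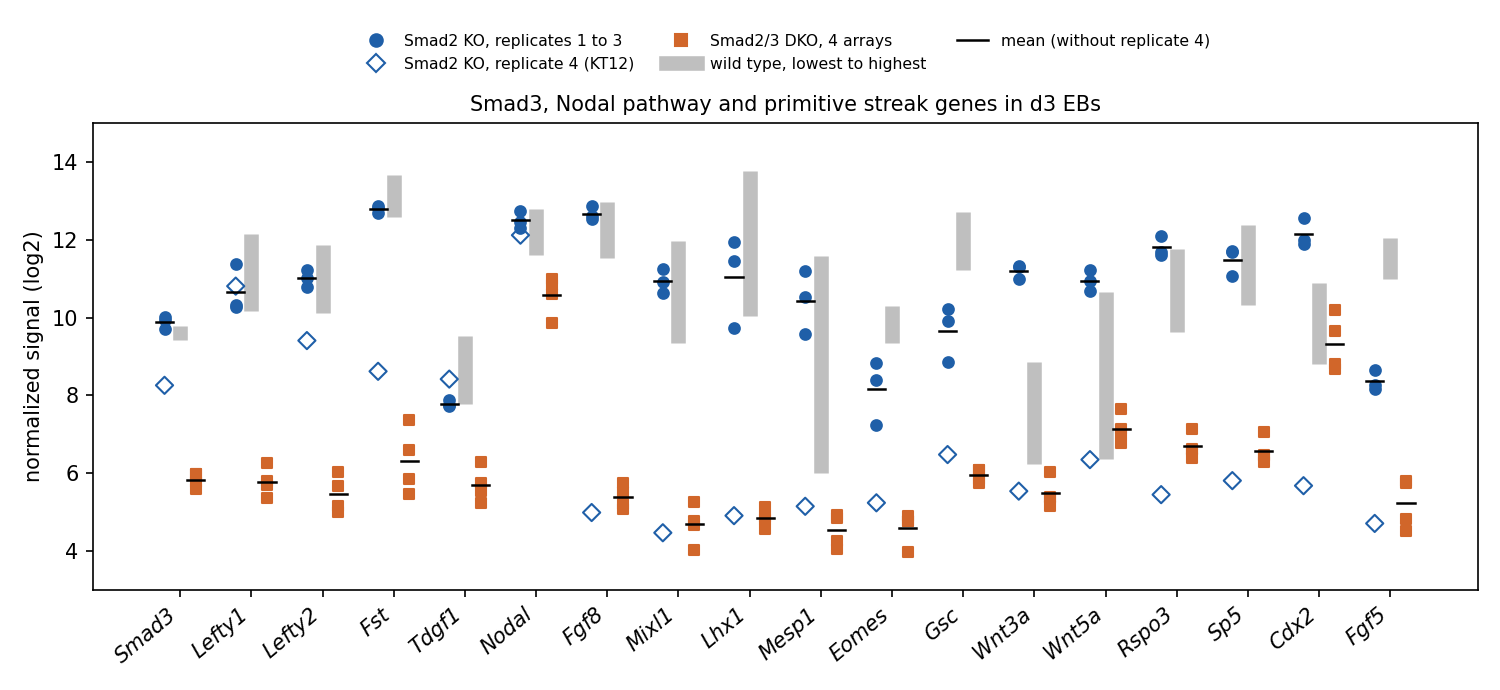
Normalized signal (log2) of Smad3, Nodal pathway and primitive streak genes in d3 EBs; each point is 1 array, filled circles being Smad2 KO replicates 1 to 3, open diamonds replicate 4, squares the 4 Smad2/3 DKO arrays, grey bars the WT range and short lines the means. Fgf8 lies between 12.54 and 12.88 on replicates 1 to 3 and between 5.08 and 5.74 in the DKO, whereas Nodal was not below 9.85 on any array.

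Genes of the primitive streak and early mesoderm were lower as a group. Of 22 tested genes of that list 18 were lower in the DKO without replicate 4, 1 (Hand1) was higher and 3 did not pass. None of the 18 overlapped between the 3 Smad2 KO and the 4 DKO arrays, but they were picked by their call on these same arrays. The 10.3% of all genes without overlap in that direction includes uncalled genes and is no measure for the 18. Among all tested genes 4.36% were called lower. The median difference of the list was -3.54, or -3.16 with undetected genes set at their bound. In 9 of the 18 the probe was undetected on all 4 DKO arrays. The mean of the ESC markers moved the other way on part of the arrays (8.59 to 9.38 in the DKO, 8.37 to 8.64 on replicates 1 to 3), and its part in the streak result was not tested.

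Fgf8, a ligand that drives cell movement through the streak, was 12.88, 12.61 and 12.54 on Smad2 KO replicates 1 to 3 and 5.74, 5.53, 5.08 and 5.22 in the DKO, at least 53.8-fold lower (adjusted p = 8.46e-05). Mixl1, a homeobox factor of the streak, was 10.64, 10.91 and 11.24 against 4.77, 5.26, 4.03 and 4.68, at least 16-fold lower (adjusted p = 5.69e-05). The 3 Smad2 KO arrays lay within 0.6 of each other for both genes and inside the WT ranges (11.54 to 12.96 and 9.34 to 11.97), and the DKO arrays lay at background. Lhx1, a LIM homeobox factor of the anterior streak, was 9.73, 11.46 and 11.94 against 4.57, 4.82, 4.88 and 5.12 (at least 17.4-fold lower, adjusted p = 0.00016). Mesp1, which marks nascent cardiac and cranial mesoderm, was 9.57, 11.20 and 10.53 against 4.06, 4.27, 4.93 and 4.86 (at least 11.4-fold lower, adjusted p = 0.00263, 0.051 as labelled). Replicate 1 was the lowest of the 3 Smad2 KO arrays for Lhx1 and Mesp1, still well above every DKO array.

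Eomes, a T-box factor needed for endoderm and cardiac mesoderm, lay lower on Smad2 KO than on WT arrays and lower again in the DKO. It read 7.24, 8.39 and 8.83 on replicates 1 to 3 and 3.97, 4.78, 4.89 and 4.76 in the DKO, against 9.36 to 10.31 in WT. The DKO arrays, all undetected, were at least 2.34-fold below Smad2 KO (adjusted p = 0.0134, 0.0708 without Smad2 KO replicate 3, 0.0772 as labelled). Gsc, an organizer homeobox gene, showed the same order, with 8.85, 9.91 and 10.21 on replicates 1 to 3, 5.85, 6.09, 5.75 and 6.09 in the DKO and 11.23 to 12.71 in WT (at least 6.64-fold lower than in Smad2 KO, adjusted p = 0.00417, 0.0524 as labelled). Gsc was the 1 gene called among 11 tested genes of the endoderm and node list. Cdx2, a regulator of posterior mesoderm and of trophectoderm, was still detected in the DKO. It was 12.55, 11.99 and 11.90 on replicates 1 to 3, 9.65, 8.67, 10.20 and 8.81 in the DKO and 8.82 to 10.88 in WT, a difference of -2.82 ± 0.74 (adjusted p = 0.0332, 0.106 without Smad2 KO replicate 1, 0.662 as labelled). The DKO arrays overlapped the WT range for Cdx2, and the Smad2 KO arrays lay above it. Aplnr, the apelin receptor of migrating mesoderm, was 9.60, 9.56 and 10.29 against 5.01, 4.33, 4.59 and 4.76 (at least 7.42-fold lower, adjusted p = 0.00112). Of the streak genes not yet described, Evx1, a homeobox gene of the posterior streak, had means of 8.12 against 12.51 (-4.39 ± 0.74, adjusted p = 0.00198, 0.153 as labelled), DKO first. Cyp26a1, which degrades retinoic acid, had means of 6.82 against 11.01 (-4.18 ± 0.73, adjusted p = 0.0026, 0.0588 as labelled), and Hoxb1, an early Hox gene, of 6.76 against 10.28 (-3.52 ± 0.60, adjusted p = 0.00202, 0.164 as labelled). Evx1 kept a detectable level on all 4 DKO arrays, while Cyp26a1 and Hoxb1 were detected on 1 each. T (Brachyury) had no tested probe.

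Taking all 18 lower streak genes, replicates 1 to 3 overlapped the WT arrays in 14, lay above them in 3 and below them in 1. For the DKO the arrays lay below all WT arrays in 13 and overlapped them in 5. Across all genes 7.43% lay below WT without overlap in Smad2 KO and 12.9% in the DKO. The 18 were picked by their low DKO values against Smad2 KO, so these shares are given for scale only. Overlap with WT could rest on 1 low WT array. The lowest, median and highest WT values were 6.00, 11.49 and 11.59 for Mesp1 and 10.04, 13.34 and 13.78 for Lhx1. Replicates 1 to 3 lay below the WT median for Mesp1, Lhx1, Mixl1 and Sp5, on both sides for Fgf8 and above for Rspo3. Replicate 4 was below the other 3 Smad2 KO arrays for all 18, as low as the DKO for Fgf8 (4.99), Mixl1 (4.47) and Lhx1 (4.91). As labelled, 5 streak genes were called lower: Fgf8, Lhx1, Mixl1, Tbx6 and Wnt3a. The as-labelled calls of Fgf8, Lhx1 and Mixl1 were lost whichever of the other 7 arrays was left out, and that of Wnt3a for 6 of the 7. Smad3 KO EBs, which keep Smad2, ranged from 7.27 to 11.27 for Fgf8 and from 5.81 to 8.65 for Mixl1.

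The promoters shown are of lower genes of the Nodal and streak lists whose windows hold the letters searched. They are examples and do not stand for all genes of those lists. Each is the 250 bases before the RefSeq start (GRCm38.p6), with the letters CAGAC, a Smad-binding box, in capitals on either strand. The windows are Lhx1 (chr11:84525535-84525784, minus strand), Mesp1 (chr7:79793591-79793840, minus strand) and Tdgf1 (chr9:110946159-110946408, minus strand).
Lhx1: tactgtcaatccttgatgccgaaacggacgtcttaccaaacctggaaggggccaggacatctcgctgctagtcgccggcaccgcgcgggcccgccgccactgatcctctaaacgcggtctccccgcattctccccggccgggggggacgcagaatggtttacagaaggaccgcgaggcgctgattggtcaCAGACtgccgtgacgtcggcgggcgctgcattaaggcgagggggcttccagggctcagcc
Mesp1: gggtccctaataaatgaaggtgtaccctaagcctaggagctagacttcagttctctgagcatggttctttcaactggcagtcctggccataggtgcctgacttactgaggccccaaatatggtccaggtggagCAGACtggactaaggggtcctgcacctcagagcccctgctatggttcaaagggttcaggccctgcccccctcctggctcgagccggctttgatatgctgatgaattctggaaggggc
Tdgf1: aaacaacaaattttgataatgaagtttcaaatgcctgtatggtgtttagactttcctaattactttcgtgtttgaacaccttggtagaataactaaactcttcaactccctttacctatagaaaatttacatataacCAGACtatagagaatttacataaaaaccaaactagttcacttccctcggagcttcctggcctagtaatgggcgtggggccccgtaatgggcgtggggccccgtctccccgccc
Each window holds CAGAC 1 time, counting its reverse complement GTCTG. The letters are not particular to these genes: the interferon windows printed below hold them 3 (Igtp), 2 (Irgm2) and 0 (Isg15) times, unmarked. Of the 18 lower streak genes 13 had entries, and 9 of their 16 windows held the letters, beside 42.2% of all 32851 windows of this length.

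Genes of Wnt signaling fell with the streak genes. Of 13 tested members of the Wnt response list, 8 were lower without replicate 4 (Ccnd1, Lef1, Nkd1, Notum, Rspo3, Sp5, Wnt5a and Wnt5b), 1 was higher (Fzd7) and 4 did not pass, with a median difference of -1.96, or -1.30 with undetected genes at their bound. Among all tested genes 4.36% were called lower and 2.90% higher. Rspo3 and Sp5 are also members of the streak list, as is Wnt3a. Wnt3a, a ligand of the streak and tail bud, was 11.34, 11.30 and 10.99 on replicates 1 to 3 and 5.15, 5.36, 5.38 and 6.03 in the DKO, at least 19.5-fold lower (adjusted p = 3.34e-05). Its Smad2 KO level was above all 4 WT arrays (6.25 to 8.86), and the DKO arrays were undetected. Rspo3, a secreted enhancer of Wnt signaling, was 12.10, 11.62 and 11.70 against 6.61, 6.38, 7.14 and 6.62, a difference of -5.12 ± 0.49 (adjusted p = 3.62e-05, 0.0819 as labelled). Sp5, a transcription factor induced directly by Wnt, was 11.70, 11.71 and 11.06 against 6.30, 7.07, 6.47 and 6.45, a difference of -4.92 ± 0.83 (adjusted p = 0.00196, 0.107 as labelled). Wnt5a and Wnt5b, ligands of the noncanonical branch, differed by -3.80 ± 0.73 and -3.56 ± 0.47 (adjusted p = 0.00527, 0.15 as labelled, and 0.000302, 0.0997 as labelled). Lef1, a nuclear partner of beta-catenin, was 7.22, 7.38 and 7.39 on replicates 1 to 3 and undetected in the DKO (4.95, 5.02, 5.29 and 5.71). Replicate 4 was below the other 3 arrays for all 8 lower genes, and only Notum was called lower as labelled.

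Fgf5, a classic marker of the primed epiblast, stood at 3 separate levels in WT, Smad2 KO and DKO EBs. It read 8.17, 8.65 and 8.27 on replicates 1 to 3, 4.82, 5.79, 4.52 and 5.76 in the DKO and 10.99 to 12.05 in WT (DKO against Smad2 KO at least 2.71-fold lower, adjusted p = 4.63e-05, 0.0608 as labelled). Fgf15 (adjusted p = 0.00985, too dim for a bound on the fold) and Pim2 (-1.49 ± 0.31, adjusted p = 0.00965, 0.0592 without Smad2 KO replicate 3) were the other lower members of 10 tested primed genes. Fgf15, an Fgf ligand, was detected on only 1 of the 3 Smad2 KO arrays and on no DKO array. Pim2 encodes a survival kinase. The de novo methyltransferase gene Dnmt3b did not pass: it was 13.77, 14.18 and 13.87 against 13.85, 13.87, 13.72 and 13.92, a difference of -0.10 ± 0.15 (adjusted p = 0.813). Of 14 naive pluripotency genes 1, Stat3, passed (-0.57 ± 0.14, adjusted p = 0.0238, 0.0785 without Smad2 KO replicate 1), and of 11 general pluripotency genes 1, Tdgf1. Of the 10 ESC markers used to check the arrays limma called 0 in either analysis (3 at an unadjusted p under 0.05 without replicate 4 and 0 as labelled). Their mean log2 signal was 8.59 to 9.38 in the DKO against 8.37 to 8.64 on Smad2 KO replicates 1 to 3 and 6.27 to 6.96 in WT.

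Mesenchymal genes were lower as well, 5 of 9 tested members of the list of epithelial to mesenchymal transition (Mmp2, Twist1, Vim, Zeb1 and Zeb2) and 0 higher, with a median difference of -1.25, or -0.98 with undetected genes at their bound. All 9 were at an unadjusted p under 0.05, a share not counted over all genes, of which 4.36% were called lower. Twist1, a basic helix-loop-helix factor of mesoderm, was 8.87, 8.43 and 8.54 on replicates 1 to 3 and 6.64, 6.81, 6.55 and 7.19 in the DKO (-1.82 ± 0.24, adjusted p = 0.000279). Vim, the intermediate filament of mesenchymal cells, was 12.32, 11.57 and 11.89 against 10.07, 9.94, 9.76 and 9.88 (-2.01 ± 0.42, adjusted p = 0.00845). Neither gene overlapped between those groups. Thy1, the only detected fibroblast marker, was lower too (-0.89 ± 0.21, adjusted p = 0.0208, 0.0929 without Smad2 KO replicate 2), and the part of such cells in this group was not tested, the other 9 markers being undetected. Zeb1 and Zeb2, repressors of E-cadherin, were undetected on all DKO arrays, at least 1.53-fold and 1.45-fold lower (adjusted p = 0.0293, 0.127 without Smad2 KO replicate 3 for Zeb1, and 0.00617 for Zeb2). Mmp2, a secreted protease, changed by -0.97 ± 0.24 (adjusted p = 0.0238, 0.127 without Smad2 KO replicate 2, 0.128 as labelled). Actc1, cardiac actin, was the 1 called gene of 13 in the actin contractile list (-2.55 ± 0.69, adjusted p = 0.0388, 0.14 without Smad2 KO replicate 1, 0.508 as labelled).

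Genes of the interferon response and of antigen processing were lower in the DKO as well. The list of 61 such genes was drawn up from textbook members after the calls had been seen, so its counts are a description. Of 43 tested, 18 were lower in the DKO without replicate 4, 0 higher and 25 did not pass (26 of the 43 were at an unadjusted p under 0.05), with a median difference of -0.75. Among all tested genes 4.36% were called lower and 10.3% lay lower without overlap. None of the 18 overlapped between the 3 Smad2 KO and 4 DKO arrays, but they were picked by their call on these arrays. Interferons act through Jak kinases and Stat factors to switch on Irf1, antiviral effectors and the machinery that cuts and loads peptides onto MHC class I.

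Irf1, a transcription factor that drives many of these genes, was 13.60, 13.63 and 13.46 on replicates 1 to 3, 11.63 on replicate 4 and 10.89, 11.08, 10.92 and 10.71 in the DKO. The arrays of the groups were separate, with replicate 4 in between, and the difference was -2.67 ± 0.25 (adjusted p = 3.34e-05); the 4 other tested Irf1 probes had the same sign. Psmb8, a catalytic subunit of the immunoproteasome, was 11.27, 11.34 and 12.04 on replicates 1 to 3, 7.28 on replicate 4 and 6.12, 6.69, 6.72 and 6.81 in the DKO, at least 24.6-fold lower (adjusted p = 7.76e-05). Its partners Psmb9 (at least 2.03-fold lower, adjusted p = 0.0087, 0.0569 without Smad2 KO replicate 3) and Psmb10 (-2.29 ± 0.25, adjusted p = 6.94e-05) were lower too. The proteasome activator genes Psme1 and Psme2 changed by -1.07 ± 0.15 and -0.71 ± 0.16 (adjusted p = 0.000384, 0.0543 as labelled for Psme1, and 0.0165, 0.0885 without Smad2 KO replicate 3, 0.464 as labelled for Psme2).

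Tap2, a subunit of the peptide transporter, was 9.42, 9.14 and 9.30 against 5.45, 6.31, 6.52 and 6.04 (at least 5.15-fold lower, adjusted p = 3.62e-05, 0.0599 as labelled). Of the proteins that work with it, Tapbpl (at least 4.51-fold, adjusted p = 3.34e-05) and tapasin, encoded by Tapbp (-1.33 ± 0.38, adjusted p = 0.0499, 0.186 without Smad2 KO replicate 3, 0.657 as labelled), were also lower. The other transporter subunit, Tap1 (adjusted p = 0.255, undetected in the DKO), and the class I genes B2m (-0.61 ± 0.22, adjusted p = 0.121), H2-D1 (0.16 ± 0.21, adjusted p = 0.777) and H2-K1 (-0.34 ± 0.27, adjusted p = 0.585) did not pass. Irgm2, an immunity-related GTPase, was 10.36, 10.22 and 10.87 on replicates 1 to 3 and 7.07, 6.49, 6.58 and 6.74 in the DKO (-3.76 ± 0.29, adjusted p = 6.73e-06). Igtp, of the same family, was 10.12, 9.85 and 10.44 against 6.94, 6.45, 6.27 and 7.18 (-3.43 ± 0.42, adjusted p = 0.000153). Every Smad2 KO array of the 3 was well above every DKO array for both. Isg15, a ubiquitin-like protein, was 10.27, 9.23 and 10.28 against 7.09, 6.12, 6.24 and 6.83 (-3.36 ± 0.40, adjusted p = 0.000145), and Uba7, the enzyme that activates it, was at least 1.8-fold lower (adjusted p = 0.000107). Cd274, which encodes the checkpoint ligand PD-L1, was at least 5.74-fold lower (adjusted p = 3.44e-05). Parp14 and Dtx3l differed by -2.84 ± 0.33 and -2.55 ± 0.28 (adjusted p = 0.00014 and 8.46e-05). The other tested Dtx3l probe had the opposite sign, so that call is uncertain.

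Signal transducers of the response that the list holds did not pass the test. Stat2 was 7.16, 7.39 and 7.20 on replicates 1 to 3 and 7.03, 7.26, 7.02 and 7.26 in the DKO (-0.11 ± 0.19, adjusted p = 0.853), and Irf9, Ifngr1, Ifngr2, Ifnar2 and Jak1 did not pass (adjusted p = 0.222 to 0.975). Jak2, a receptor-associated kinase, was 8.96, 8.77 and 8.42 against 7.82, 7.78, 7.49 and 7.72, lower without overlap but short of the threshold (-1.01 ± 0.31, adjusted p = 0.0693), and it passed under 5 of the 18 alternatives run. Cxcl10, an interferon-induced chemokine, read higher in the DKO on every array, 9.17, 8.73, 9.87 and 8.75 against 7.64, 8.17 and 7.80. It passed as labelled (1.67 ± 0.44, adjusted p = 0.0427) but not without replicate 4 (1.26 ± 0.39, adjusted p = 0.0712).

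In 16 of the 18 lower genes the 3 Smad2 KO arrays lay above every WT array, and the DKO arrays lay below every WT array in 9. The shares of all genes were 9.49% and 12.9%, but the 18 were picked by their call between these groups. That pick favours high Smad2 KO and low DKO values, so the shares are given for scale only. Psmb8, for example, ranged from 7.49 to 10.77 in WT and from 7.63 to 8.73 in Smad3 KO EBs, below all 3 Smad2 KO arrays and above all 4 DKO arrays. Replicate 4 was below the other 3 Smad2 KO arrays for all 18, and 13 of them were called lower as labelled. The as-labelled calls of Isg15, Igtp and Psmb9 were lost whichever of the other 7 arrays was left out, and that of Uba7 for 6 of the 7. Those of Irgm2 and Psmb8 were lost for 2 of the 7. Irf1, Psmb10, Tapbpl, Cd274, Parp14, Dtx3l and Oasl2 stayed called throughout. Clone KT15 (replicate 2), the parent of the DKO clones, was above the DKO mean for all 18, as their lack of overlap requires.

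**Figure D2:**
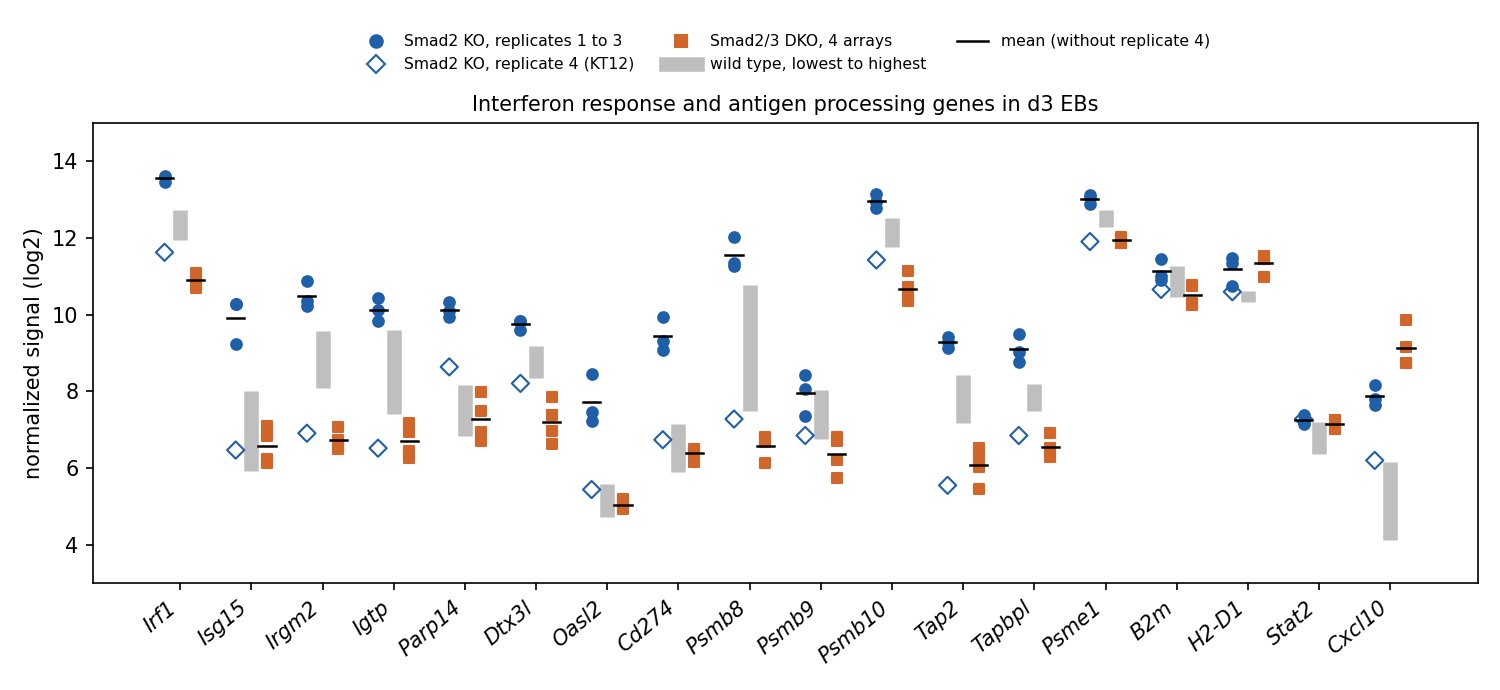
Normalized signal (log2) of genes of the interferon response and antigen processing in d3 EBs, with 1 point per array and the same symbols as for the streak genes (grey bars are the WT range, short lines the means without replicate 4). Irf1 to Psme1 sit higher on Smad2 KO replicates 1 to 3 than in the DKO, the groups overlap for H2-D1 and Stat2, and Cxcl10 lies the other way round.

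Promoters of 3 of these genes are printed because they share a recognisable element. The windows are the 250 bases before the start of Isg15 (chr4:156200819-156201068, minus strand), Irgm2 (chr11:58214727-58214976, plus strand) and Igtp (chr11:58199306-58199555, plus strand) in RefSeq, build GRCm38.p6. Capitals mark the core of the interferon-stimulated response element, searched as TTTC, any 2 bases and TTTC, or the same on the other strand (GAAA, any 2 bases and GAAA).
Isg15: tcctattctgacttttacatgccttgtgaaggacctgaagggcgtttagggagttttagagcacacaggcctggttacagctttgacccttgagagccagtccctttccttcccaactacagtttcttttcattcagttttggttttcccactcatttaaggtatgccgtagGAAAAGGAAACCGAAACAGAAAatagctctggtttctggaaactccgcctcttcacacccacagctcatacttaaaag
Irgm2: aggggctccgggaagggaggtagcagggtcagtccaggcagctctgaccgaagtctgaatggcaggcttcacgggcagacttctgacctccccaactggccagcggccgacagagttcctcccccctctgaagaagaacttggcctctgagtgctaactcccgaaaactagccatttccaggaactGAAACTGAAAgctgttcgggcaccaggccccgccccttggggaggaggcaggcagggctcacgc
Igtp: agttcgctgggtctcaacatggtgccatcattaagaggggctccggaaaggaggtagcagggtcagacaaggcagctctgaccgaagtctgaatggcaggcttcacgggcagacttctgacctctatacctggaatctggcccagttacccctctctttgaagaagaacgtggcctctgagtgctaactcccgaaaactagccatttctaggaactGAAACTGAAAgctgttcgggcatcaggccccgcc
In Isg15 3 matches overlap in a single run, and the other 2 promoters hold 1 each. Of the 18 lower genes 15 had entries, and 4 of their 18 windows, of Gbp3, Igtp, Irgm2 and Isg15, held the element, beside 2.98% of all 32851 windows.

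Regulators and markers of the trophoblast were higher in the DKO. Of 23 tested genes of the trophectoderm and extra-embryonic ectoderm list 10 were higher without replicate 4 (Ascl2, Dlx3, Fgfr2, Gata2, Gata3, Hand1, Krt7, Plac1, Pparg and Rhox6), 2 were lower (Cdx2 and Eomes, which the streak also uses) and 11 did not pass. The median difference of the list was 1.15, and as labelled 9 were higher and 0 lower (16 of the 23 at an unadjusted p under 0.05). For all 10 the DKO arrays lay above every WT array, and in 7 of them replicates 1 to 3 of Smad2 KO were above WT as well. The shares of all genes above WT were 14.2% for the DKO and 9.49% for Smad2 KO. The 10 were picked for high DKO values, so these shares are given for scale only, and the 23 tested members were not counted against WT. Among all tested genes 2.90% were called higher in the DKO without replicate 4.

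Plac1, an X-linked placental gene, was 8.72, 8.59 and 10.03 on Smad2 KO replicates 1 to 3, 9.04 on replicate 4 and 13.20, 10.14, 12.10 and 12.50 in the DKO. The groups did not overlap, with DKO replicate 2 (KT15.2D5) the lowest of its group, and the difference was 2.87 ± 0.54 (adjusted p = 0.00434). WT arrays (5.62 to 6.30) were all undetected, while all 3 Smad2 KO arrays detected Plac1. Ascl2, a helix-loop-helix factor of the ectoplacental cone, was undetected on replicates 1 to 3 (6.79, 6.27 and 6.95) and 10.63, 8.53, 9.33 and 9.33 in the DKO, at least 5.93-fold higher (adjusted p = 0.000167). Gata2, a trophoblast transcription factor, was 8.73, 8.63 and 9.14 against 12.08, 10.78, 10.94 and 11.30 (2.44 ± 0.40, adjusted p = 0.00145). Dlx3, a homeobox gene of the placenta, was 7.96, 8.17 and 8.71 against 11.43, 9.59, 10.05 and 10.87 (2.20 ± 0.45, adjusted p = 0.00796). Replicate 4 was close to the other Smad2 KO arrays for both, at 8.94 and 8.25.

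Pparg, a nuclear receptor needed for placental maturation, varied widely among the DKO clones. It was 6.73, 5.91 and 7.61 on replicates 1 to 3 and 10.60, 7.58, 8.80 and 10.71 in the DKO, where KT15.2D5 fell inside the Smad2 KO range, and the difference was 2.68 ± 0.64 (adjusted p = 0.02, 0.114 without Smad2 KO replicate 2). Krt7, a keratin of simple epithelium, was 9.08, 8.53 and 9.25 against 10.86, 9.89, 10.49 and 10.76 (1.55 ± 0.24, adjusted p = 0.00109), without overlap. Rhox6, an X-linked homeobox gene, overlapped between groups: 9.35, 8.19 and 10.43 on replicates 1 to 3, 10.46 on replicate 4 and 11.37, 9.91, 10.92 and 12.53 in the DKO. The difference was 1.86 ± 0.51 (adjusted p = 0.0409, 0.223 without Smad2 KO replicate 2, 0.0894 as labelled), and near-identical Rhox copies may share its probe. Rhox9, of the same family, did not pass (1.45 ± 0.53, adjusted p = 0.137). The keratins Krt8 (0.61 ± 0.54, adjusted p = 0.63) and Krt18 (1.16 ± 0.41, adjusted p = 0.124) did not pass either. Within the epithelial list 3 of 12 tested genes were higher, Krt7, the claudin gene Cldn3 (1.43 ± 0.34, adjusted p = 0.0204, 0.103 without Smad2 KO replicate 2) and the protease inhibitor gene Spint1 (0.69 ± 0.15, adjusted p = 0.0097, 0.0584 without Smad2 KO replicate 3), and 0 were lower (7 of the 12 at an unadjusted p under 0.05).

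Of 13 tested genes of the Bmp list 5 were higher in both analyses, Dlx3, Gata2, Hand1, Id2 and Id4, and 0 lower (10 of the 13 at an unadjusted p under 0.05), with a median difference of 0.59. The share of all genes called higher was 2.90% without replicate 4 and 2.51% as labelled. As labelled, the calls of Id2 and Id4 were each lost for 5 of the other 7 arrays left out and that of Hand1 for 2. Those of Dlx3 and Gata2 were kept. Id2, an inhibitor of helix-loop-helix factors, was 8.88, 8.01 and 8.72 on replicates 1 to 3, 9.23 on replicate 4 and 10.67, 9.71, 10.65 and 10.04 in the DKO (1.73 ± 0.41, adjusted p = 0.0198, 0.112 without Smad2 KO replicate 2). Id4 was undetected on replicates 1 to 3 (6.35, 6.43 and 6.48) and 7.68, 7.81, 7.35 and 7.42 in the DKO, at least 1.6-fold higher (adjusted p = 0.0107). Neither overlapped between groups. Id1 was 12.94, 12.95 and 12.77 against 13.09, 13.33, 13.14 and 12.92 and did not pass (0.23 ± 0.25, adjusted p = 0.711), and Id3 did not pass (0.52 ± 0.25, adjusted p = 0.283). Hand1, a helix-loop-helix factor of trophoblast giant cells and of extra-embryonic mesoderm, was 6.84, 6.71 and 7.16 against 8.46, 7.47, 9.21 and 8.56 (1.52 ± 0.39, adjusted p = 0.0279, 0.116 without Smad2 KO replicate 2).

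**Figure D3:**
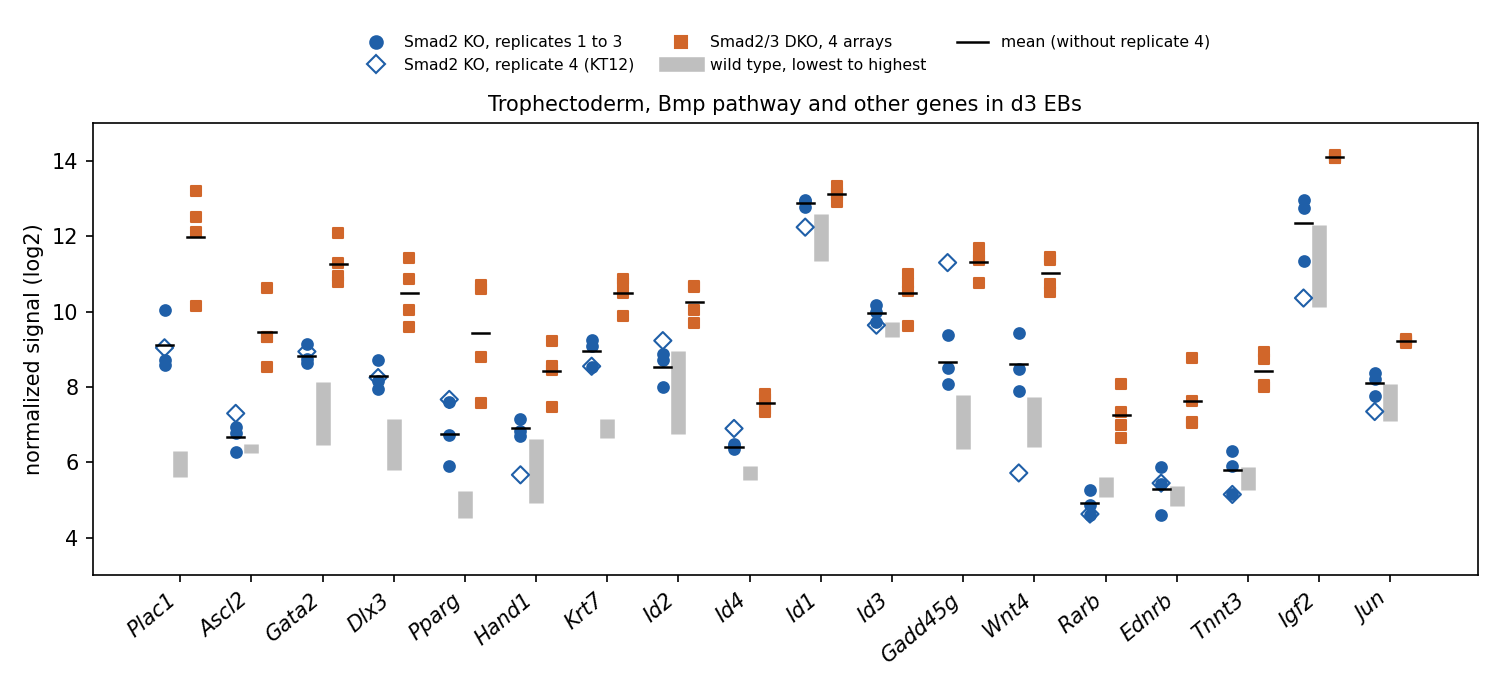
Normalized signal (log2) of trophectoderm, Bmp pathway and other genes in d3 EBs, with 1 point per array and the same symbols as for the streak genes (grey bars are the WT range, short lines the means without replicate 4). The DKO squares of Plac1 spread from 10.14 to 13.20, while the groups overlap for Id1 and Id3.

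Outside these lists the higher genes had mixed roles. Tnnt3, fast skeletal troponin T, was undetected on replicates 1 to 3 (5.91, 6.29 and 5.17) and 8.74, 8.01, 8.92 and 8.05 in the DKO, at least 2.91-fold higher (adjusted p = 6.13e-05). Rarb, a retinoic acid receptor, was undetected on replicates 1 to 3 (5.26, 4.61 and 4.88) and 8.08, 6.99, 7.33 and 6.66 in the DKO, at least 1.3-fold higher (adjusted p = 0.000116). Ednrb, an endothelin receptor, was at least 1.68-fold higher (adjusted p = 0.00128). None of these 3 genes was detected in WT or in ESCs of either knockout. Wnt4, a Wnt ligand of kidney and gonad, was 9.42, 8.49 and 7.89 against 11.44, 10.74, 11.36 and 10.53 (2.42 ± 0.38, adjusted p = 0.0012). Gadd45g, a stress-inducible gene, was 9.39, 8.51 and 8.07 on replicates 1 to 3 and 11.41, 10.77, 11.69 and 11.36 in the DKO (2.65 ± 0.35, adjusted p = 0.000322), with replicate 4 at the DKO level (11.30). Igf2, an imprinted growth factor, was 12.97, 12.76 and 11.33 against 14.08, 14.15, 14.07 and 14.12, the DKO arrays spanning 14.07 to 14.15 (1.75 ± 0.49, adjusted p = 0.0454, 0.218 without Smad2 KO replicate 3). Parm1, Masp1, Nxf7, AU015836 and Htr1d were also among the most raised, by 2.12 to 2.65. Among the most lowered genes outside the lists were the probe annotated to Defa31, one of a family of near-identical defensin genes that the probe may not tell apart (11.26, 11.97 and 11.67 against 5.98, 6.32, 5.24 and 5.46, at least 26.1-fold lower, adjusted p = 0.000145) and Sall3, a zinc finger gene (-3.33 ± 0.40, adjusted p = 0.000145).

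Several lists gave 0 calls with limma in either analysis. These were the lists of Atf4 stress response and serine synthesis (16 tested, median -0.27, 2 at an unadjusted p under 0.05 and 5 as labelled), annexins, galectins and S100 genes (11 tested, median 0.08, 3 at an unadjusted p under 0.05 in both analyses), germ cell genes (8 tested, 1 and 0 at an unadjusted p under 0.05) and the 2-cell-like state (2 tested, 0 at an unadjusted p under 0.05). Of 16 tested genes of the primitive, visceral and parietal endoderm 3 were higher, with a list median of 0.20: Col4a2, a basement membrane collagen (1.11 ± 0.30, adjusted p = 0.0374, 0.111 without Smad2 KO replicate 1), Dab2, an endocytic adaptor (1.48 ± 0.37, adjusted p = 0.0261, 0.114 without Smad2 KO replicate 1), and Fabp3, a fatty acid carrier (1.12 ± 0.24, adjusted p = 0.0108, 0.0721 without Smad2 KO replicate 2, 0.137 as labelled). Glycolysis and hypoxia genes gave 1 higher (Ndrg1) and 1 lower (Egln3) of 16, cell cycle genes 1 higher (Ccnd3) and 1 lower (Ccnd1) of 15, and p53 targets 1 higher (Bcl2l11) and 1 lower (Pmaip1) of 12. As labelled the lower calls of Ccnd1 and Pmaip1 were lost (adjusted p = 0.119 and 0.109), and each of these 6 calls was lost when 1 further array was left out. Of 4 tested neural genes Nes was lower (-1.49 ± 0.37, adjusted p = 0.0235, 0.114 without Smad2 KO replicate 1, 0.247 as labelled). Among 8 tested DNA methylation genes Gadd45g and Gadd45b (1.39 ± 0.36, adjusted p = 0.0337, 0.143 without Smad2 KO replicate 2) were higher.

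**Figure D4:**
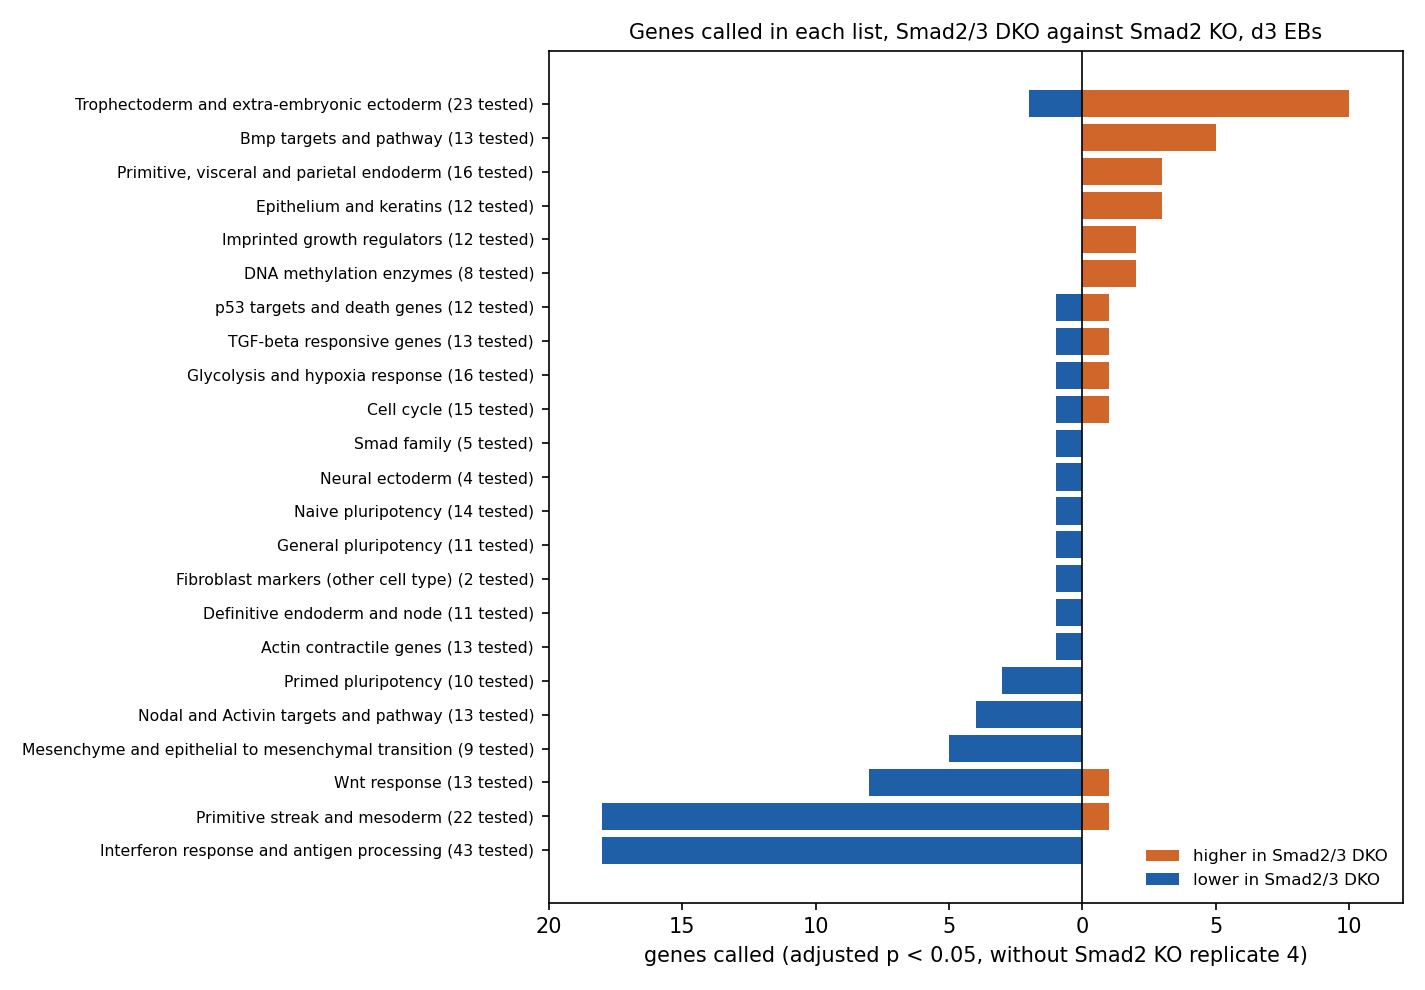
Number of genes called at an adjusted p under 0.05 in each list that held a call, without Smad2 KO replicate 4, with bars to the right for genes higher in the DKO and to the left for genes lower; both directions count from 0. The streak and interferon lists have 18 lower genes each and the trophectoderm list 10 higher genes. Among all tested genes 4.36% were called lower and 2.90% higher.

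To see when the differences arose, the same genes were read in ESCs and d2 EBs. In the d2 groups the libraries labelled replicate 4 went against the Smad3 check: the library labelled d2EB_Smad2KO replicate 4 read 5.29 for Smad3 and that labelled d2EB_Smad23DKO replicate 4 read 9.42, while the other 3 of each group read 9.11 to 9.81 and 4.96 to 5.46. Values below leave out both and d3 Smad2 KO replicate 4. The 4 d2 Smad2 KO arrays came from 2500 EBs, 3 of the 4 d2 DKO arrays from 5000 and the other from 2500, so that at d2 EB number differs between the genotypes, and its part in the stage test was not tested. With all libraries as labelled, the test of whether the d3 difference departs from the d2 difference (a limma interaction) called 0 genes, with 980 (10.1%) at an unadjusted p under 0.05. Without the 3 libraries it called 135 (1.40%), with 1036 (10.7%) at an unadjusted p under 0.05.

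Lefty1 and Fgf8 were already apart at d2. Lefty1 was 10.38 to 11.16 in Smad2 KO and 5.22 to 5.59 in DKO d2 EBs, and Fgf8 was 9.47 to 9.96 and 5.43 to 6.39. In ESCs Fgf8 was undetected in both genotypes, and Lefty1 was 8.83 to 11.15 in Smad2 KO against 6.19 to 8.37 in the DKO. Later genes separated at d3: Mixl1 was undetected in both at d2 (6.15 to 6.94 and 4.79 to 6.22), and its fitted d3 difference minus the d2 difference was -5.22 ± 0.86 (adjusted p = 0.00317). Wnt3a (-5.80 ± 0.64, adjusted p = 4.44e-05), Mesp1 (-5.38 ± 1.25, adjusted p = 0.0327) and Fst (-4.67 ± 0.69, adjusted p = 0.00092) also depended on the stage in this test. Fst was 10.79 to 11.88 in Smad2 KO and 8.72 to 10.48 in DKO d2 EBs, so it was still on in the DKO at d2. Nodal was 13.04 to 13.17 and 12.40 to 13.31 at d2, with overlap. For Lefty1 and Fgf8 the stage test did not pass (0.57 ± 0.94, adjusted p = 0.889, and -3.41 ± 1.12, adjusted p = 0.178).

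In ESCs the 18 lower interferon genes differed in level: Psmb8 was undetected in both genotypes, whereas Irf1 was detected on all 3 arrays of each (10.43 to 10.72 in Smad2 KO and 10.06 to 10.57 in the DKO). Psmb8 was 5.92 to 7.11 in Smad2 KO and 5.94 to 6.33 in DKO ESCs, and 7.59 to 9.93 and 6.45 to 7.00 at d2. Isg15 (-2.65 ± 0.55, adjusted p = 0.0153), Tap2 (-2.53 ± 0.54, adjusted p = 0.0179) and Irgm2 (-2.86 ± 0.68, adjusted p = 0.0352) depended on the stage, whereas Irf1 (-1.25 ± 0.38, adjusted p = 0.144) did not pass. Of the higher genes, Rarb (2.19 ± 0.43, adjusted p = 0.0103), Tnnt3 (2.31 ± 0.42, adjusted p = 0.00688) and Ascl2 (1.93 ± 0.48, adjusted p = 0.0427) had a larger difference at d3 than at d2. Plac1 spread widely at d2 (7.29 to 9.58 and 7.53 to 10.74), and its stage test did not pass (2.47 ± 0.89, adjusted p = 0.238).

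**Figure D5:**
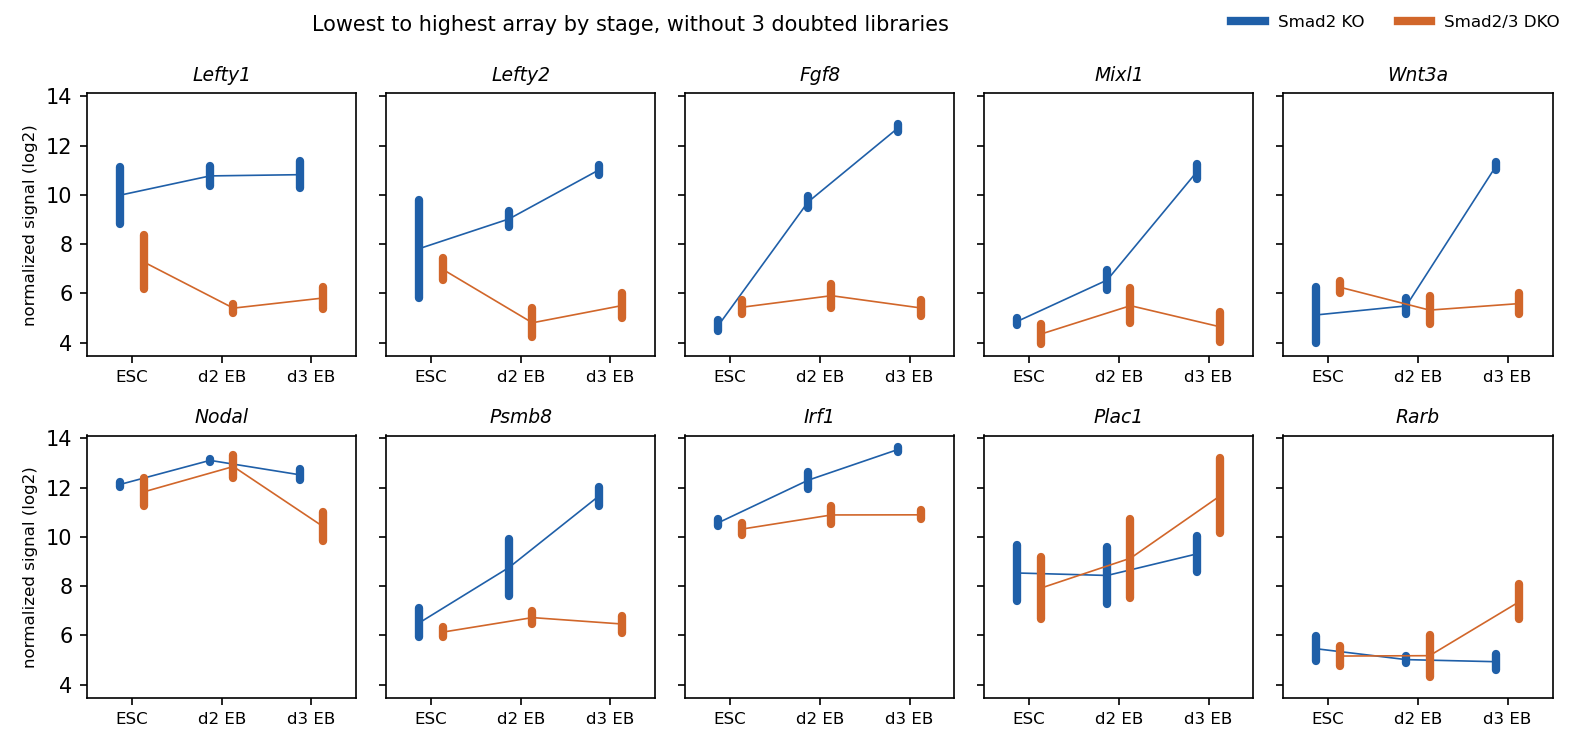
Normalized signal (log2) from ESCs to d3 EBs in Smad2 KO and Smad2/3 DKO cells without the 3 doubted libraries, with thick bars from the lowest to the highest of 3 or 4 arrays and thin lines joining their midpoints. Mixl1 and Wnt3a separate between d2 and d3, whereas Lefty1 and Fgf8 are apart at d2 already.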

How the data were processed

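RNA of 45 samples from 4 genotypes at 3 stages was hybridised to Illumina MouseWG-6 v2.0 arrays, and 8 of them are compared here. The authors extracted bead data with GenomeStudio 2009.2, giving the deposited non-normalized intensity per probe and a deposited detection p-value, and then deposited a background-corrected, quantile-normalized log2 table whose settings are not given in the sources used here. The series matrix holds the same values and was not used.

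Each probe of the log2 table was fitted with limma 3.58.1 in R 4.3.3, with 1 mean per genotype over the 16 d3 arrays (15 without Smad2 KO replicate 4), and called at an adjusted p under 0.05. A gene stands for its tested probe with the highest mean over 45 arrays. Of 45281 probes 34885 carried 1 symbol, 18 several and 10378 none, and 34807 matched RefSeq by gene ID. Named genes were Smad2, Smad3, the 12 most changed each way without replicate 4 and up to 8 each way as labelled among called genes without overlap, up to 5 called members per list and 19 further fixed genes; members of the interferon list, and genes in counts of 5 or fewer, were named after their values were seen. Members and gene lists were chosen with earlier results of these data known. Every array is a separate clone, but the DKO clones all descend from 1 Smad2 KO clone. The spread behind the p-values was pooled over all the d3 arrays fitted, WT and Smad3 KO included. The p-values therefore do not measure how far DKO lines from independent parents would differ. The fit was tested on simulated data. Alternatives (signal processing, filter, samples, weights, threshold, left-out arrays) are given in the closing section. The number of arrays limits the precision.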

Additional observations from a re-analysis of the deposited data

Results flagged for a closer look

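Among 242 groups of 4 arrays (121 genes in 2 groups, 79 named by rule and 42 more of the interferon list), 28 held an array far from the other 3 by Dixon's criterion, 11.6%. The nominal rate of about 1 in 20 is no measure for this set. Many of its genes were named from the fit without replicate 4, and genes that move together are not independent. In 24 of the 28 the array set apart was Smad2 KO replicate 4 (clone KT12). Its signal was low for Fgf8 (4.99), Mixl1 (4.47), Fgf5 (4.71), Cdx2 (5.68), Fst (8.62), Defa31 (5.54), Wnt3a (5.54), Aplnr (5.56), Rspo3 (5.45), Psmb8 (7.28), Sp5 (5.81), Sall3 (10.27), Wnt5a (6.35), Wnt5b (6.02), Lef1 (5.28), Irf1 (11.63), Usp18 (5.55), Dtx3l (8.21), Gbp2 (7.96), Gbp3 (6.80), Irgm2 (6.91), Igtp (6.52) and Tap2 (5.55), and high for Stat3 (11.44). The others were DKO replicate 1 for Eomes (3.97, undetected like the other 3), DKO replicate 4 for H2-D1 (10.99), DKO replicate 3 for Ifngr1 (7.76) and Smad2 KO replicate 1 for Jak1 (9.03). On Smad2 KO replicate 4 the 10 ESC markers had a mean log2 signal of 11.6, inside the 11.4 to 11.8 of ESC Smad2 KO arrays. Its part in the results as labelled is given by the analysis without it.

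The difference between DKO and Smad2 KO itself differed between d3 and d2 EBs for 24 of the 121 genes, 5 of them (Isg15, Uba7, Irgm2, Tap2 and Cxcl10) from the interferon list (limma interaction, adjusted p under 0.05, without the 3 doubted libraries). The d3 difference minus the d2 difference on the log2 scale was negative for Mixl1 (-5.22), Fst (-4.67), Lhx1 (-5.36), Mesp1 (-5.38), Defa31 (-5.40), Wnt3a (-5.80), Aplnr (-5.13), Rspo3 (-4.48), Sall3 (-2.90), Twist1 (-1.52), Wnt5b (-3.32), Lef1 (-2.41), Isg15 (-2.65), Uba7 (-2.02), Irgm2 (-2.86) and Tap2 (-2.53), and positive for Ascl2 (1.93), Tnnt3 (2.31), Masp1 (2.57), Wnt4 (2.04), Rarb (2.19), Ednrb (2.02), Htr1d (1.54) and Cxcl10 (2.03). With all libraries as labelled 0 of these genes passed.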

How the results depend on the processing

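The count of genes called moved by over 1.5 times under some alternatives. As labelled (442) it was 233 with normexp background correction and median scaling, 161 in a fit of the 2 groups alone, 1174 with array weights, 1200 at an unadjusted p under 0.05 and a fold over 1.5, and 135 with clone KT15 as the only Smad2 KO array. Without replicate 4 (701) the same settings gave 399, 639, 1201, 1252 and 135, the fit of the 2 groups alone being within 1.5 times. With the replicate number as a block in a fit of the 2 groups, 4 genes were called as labelled and 540 without replicate 4. Same-numbered arrays share only a number: their deviations correlated at 0.20, 0.06, -0.15 and 0.14. With 1 array left out the count ranged from 190 to 701 as labelled (701 without Smad2 KO replicate 4) and from 412 to 635 without replicate 4. The stage test, 0 as labelled, gave 135 without the 3 doubted libraries and 18 with neqc. Where values are given for a lone KT15 array, its spread is assumed to be like that of the other groups. The cause of these shifts was not tested. No named gene that was called changed direction under any alternative run, and of 87 called genes without replicate 4 among the 121 genes (79 named by rule and 42 of the interferon list), 54 stayed called whichever of the 7 arrays was left out. Dim probes, with only a bound on one side, limit the fold changes of the lower genes.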
